A study of Mus musculus with 6 samples.

Results

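The genes described here are 7 protein lysine methyltransferases of muscle, namely Mettl21c, Mettl21a and the SMYD family genes Smyd1, Smyd2, Smyd3, Smyd4 and Smyd5. They were taken by gene symbol from the 23314 rows of an expression matrix of mouse quadriceps, a thigh muscle, and each symbol had 1 row. The set was chosen by the measured FPKM of these libraries, around the K15SKO against MyoCre difference of Mettl21c, with other lysine methyltransferases known from muscle added. The values of the genes in that contrast are therefore given as descriptions, and where their number past a threshold of the fit over all genes is printed, it supports nothing.

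RNA sequencing was done on total RNA of whole quadriceps. K15SKO mice carried 1 Myogenin-Cre allele (Myogenin-Cre/+) together with floxed Klf15 (K15F/F), and MyoCre mice, the controls, carried the same Cre allele (Myogenin-Cre/+) and no floxed Klf15 by their labels. All mice were 2 months old, and each genotype had 3 libraries, although the study's design text gives n = 4. Myogenin is switched on in differentiating muscle cells, so the Cre acts in those cells and not in the other cell types of the tissue. The labels do not say whether the libraries of a genotype came from separate animals, so errors and p-values measure the spread between these libraries.

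Lysine methyltransferases move a methyl group from S-adenosylmethionine to lysine side chains of histones or other proteins. METTL21 enzymes have a seven-beta-strand fold and act mostly on chaperones and translation factors, whereas SMYD enzymes carry a SET domain split by a MYND zinc finger. Mettl21c and Smyd1 are known for expression that is largely restricted to muscle. Smyd1 is needed for building the sarcomere, and Smyd2 methylates the chaperone Hsp90, which in muscle binds the giant sarcomere protein titin.

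Levels are FPKM, fragments scaled for transcript length and library size, so they can be set side by side between genes. Differences are on the log2(FPKM + 1) scale, K15SKO minus MyoCre, which understates the change of low genes. The column sums ran from 396338 to 466722 FPKM in K15SKO and from 397393 to 423185 FPKM in MyoCre. Steps between low values put the relative depth of K15SKO 1, 2 and 3 at 0.78, 1.57 and 0.90 times that of MyoCre 1, and that of MyoCre 2 and 3 at 1.08 and 1.33 times. Absolute depth is unknown, so no counting intervals are given.

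The K15SKO libraries differed among themselves. Klf15, the targeted transcription factor, was at 2.22, 21.7 and 5.32 FPKM in K15SKO 1, 2 and 3, against 35.2, 28.4 and 30.5 FPKM in MyoCre 1, 2 and 3. It was thus lower in 3 of 3 K15SKO libraries, least so in K15SKO 2. The summed level of 14 liver markers was 81.0, 6104 and 22.7 FPKM in K15SKO 1, 2 and 3, against 40.5 to 94.1 FPKM in MyoCre. By gene, 11 of these 14 were higher in every K15SKO library than in any MyoCre library, against 13.4% of the 11603 genes tested. Their median log2(FPKM + 1) relative to the MyoCre mean was 1.15, 7.26 and 0.25 in K15SKO 1, 2 and 3, against −0.058 to 0.031 in MyoCre. For 11 regeneration or denervation markers the sums were 223, 131 and 50.7 FPKM in K15SKO, against 44.8 to 52.0 FPKM in MyoCre, and for 10 macrophage markers 342, 191 and 39.4 FPKM, against 43.4 to 52.2 FPKM. Defining markers of skeletal muscle were present in every library: 12 of them summed to 42111, 42913 and 69667 FPKM in K15SKO 1, 2 and 3, against 60095, 60515 and 70073 FPKM in MyoCre 1, 2 and 3. The 12 were Mylpf, Myl1, Tnni2, Tnnc2, Pygm, Eno3, Ryr1, Cacna1s, Casq1, Des, Actn3 and Pgam2. They include fast fibre forms such as Tnni2, Tnnc2 and Actn3, and none of the slow fibre markers summed below. The part of fibre type in this sum was not tested. In the regeneration, macrophage and muscle marker sums K15SKO 1 and 2 thus stood apart, and K15SKO 3 lay at or near the MyoCre values. By gene, 8 of the 11 regeneration or denervation markers were higher in every K15SKO library than in any MyoCre library. Their median log2(FPKM + 1) relative to the MyoCre mean was 2.10, 1.90 and 0.20 in K15SKO 1, 2 and 3, against −0.014 to 0.011 in MyoCre. In other sums K15SKO 3 stood apart too: 10 slow fibre markers came to 875, 261 and 1262 FPKM in K15SKO 1, 2 and 3, against 237, 335 and 59.0 FPKM in MyoCre 1, 2 and 3, and 8 adipocyte markers to 54.4, 139 and 36.6 FPKM, against 228, 550 and 181 FPKM.

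Among the 7 genes, Mettl21c stood far lower in all 3 K15SKO libraries, Smyd2 stood lower and Mettl21a higher in K15SKO 1 and 2 alone, and Smyd1 and Smyd5 were nearly level in all 6 libraries. Smyd3 and Smyd4 were low throughout, with 1 K15SKO library above the others in each case. Of the 7, 0 were among the 6 genes that limma called at an adjusted p of 0.05, which made up 0.0517% of the 11603 genes tested (0.0172% higher and 0.0345% lower in K15SKO), and 2 had an unadjusted p under 0.05, against 16.6% of genes tested. All 7 had passed the filter of a mean of at least 1 FPKM. Of the 6 called genes, Gm12300 and Myh1 were listed at 0 FPKM in every K15SKO library. Pvalb and Gm25994 were listed at 0 FPKM in every MyoCre library, while Igfn1 and Npc1 were above 0 in every library. For example, Myh1 was at 486, 350 and 505 FPKM in MyoCre 1, 2 and 3. The source of these zeros, in the tissue or in the authors' counting, was not tested. Of the 7 genes, 0 were higher in K15SKO without overlap between the groups, against 13.4% of genes tested. In 4 of the 7 (Mettl21c, Mettl21a, Smyd2 and Smyd4) K15SKO 3 was the K15SKO library nearest to the MyoCre mean, against 58.7% of genes tested. Since the contrast was known when the genes were chosen, nothing is read from these counts.

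**Figure D1:**
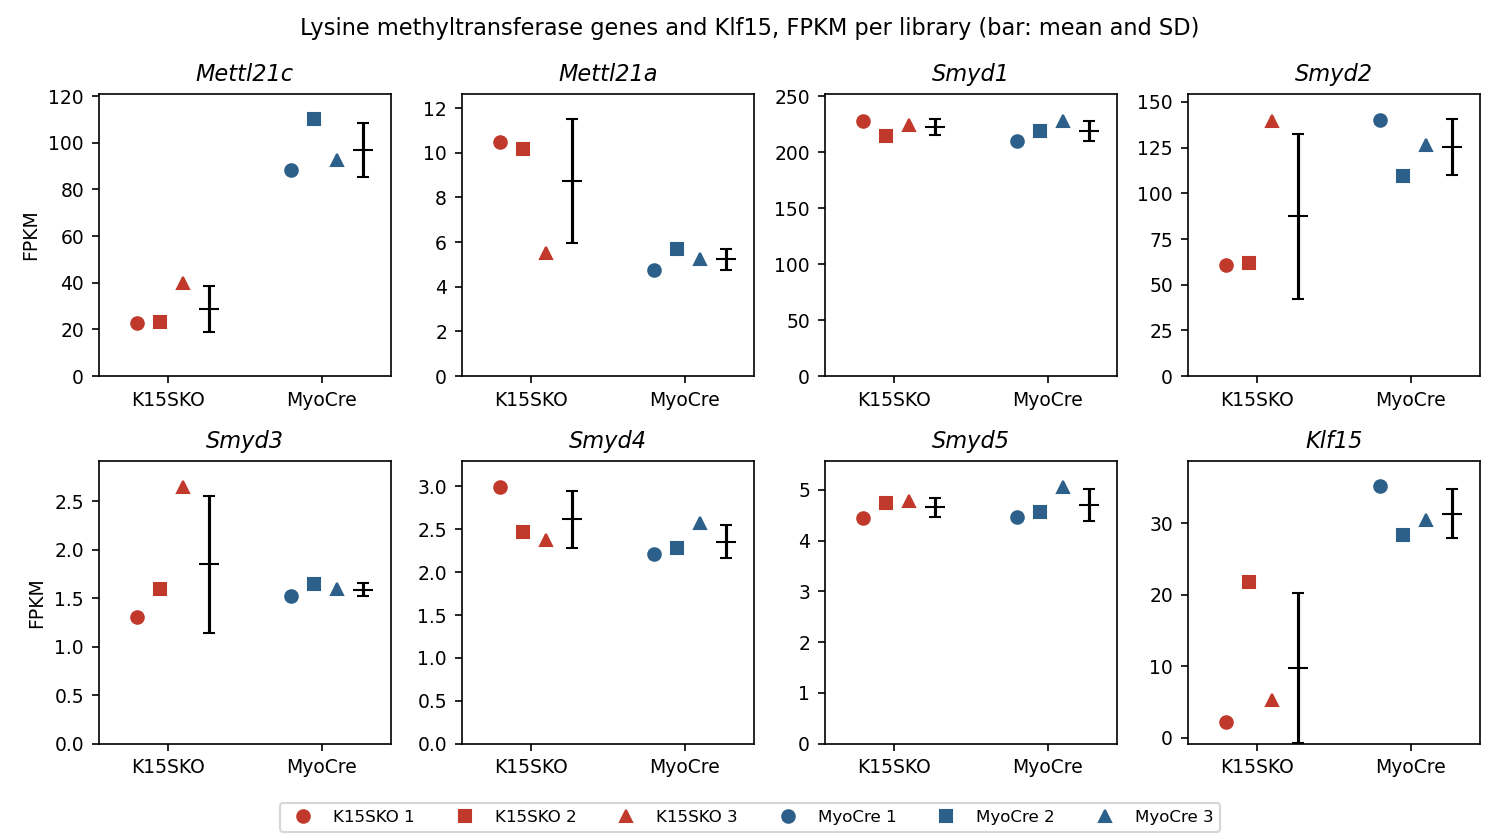
FPKM (y axis, each panel with its own scale) of the 7 lysine methyltransferase genes and Klf15 in each K15SKO (red) and MyoCre (blue) library, with the group mean and SD in black. Mettl21c lies between 22.7 and 40.1 FPKM in K15SKO and between 88.2 and 110.1 FPKM in MyoCre, while the Smyd1 values of both groups overlap.

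Mettl21c encodes a methyltransferase that in mouse muscle has been reported to methylate the chaperone Hspa8 and alanyl-tRNA synthetase. It lies on chromosome 1 from 44009408 to 44020034 on the minus strand of GRCm38, with 5 exons in its coding transcript. Its level was 22.7, 23.3 and 40.1 FPKM in K15SKO 1, 2 and 3, against 88.2, 110.1 and 92.8 FPKM in MyoCre 1, 2 and 3. The groups did not overlap: the highest K15SKO library was below the lowest MyoCre library. Among all genes tested 11.4% were lower in K15SKO without overlap, and Mettl21c was the only one of the 7. Relative to the MyoCre mean the K15SKO libraries held 23.4%, 24.0% and 41.4%. The mean was 28.7 ± 9.91 FPKM in K15SKO and 97.0 ± 11.5 FPKM in MyoCre (SD, n = 3 each), 3.38-fold lower in K15SKO. The log2 difference was −1.77 (SE 0.24), and 40 of the 11603 genes tested, or 0.345%, had a difference at or below it. In bulk tissue, fewer muscle fibres and less of the transcript per fibre cannot be told apart.

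Leaving out single libraries changed the size of the Mettl21c difference little. The log2 difference was −1.63, −1.65 and −2.03 without K15SKO 1, 2 and 3, and lay between −1.83 and −1.67 when each MyoCre library was left out in turn. K15SKO 2, the library with the highest liver marker sum and with Klf15 at 69.3% of the MyoCre mean, had nearly the same Mettl21c level as K15SKO 1, where Klf15 was at 7.08%. K15SKO 3, with Klf15 at 17.0%, had the highest Mettl21c of the 3. The order of the K15SKO libraries by Mettl21c differed from their order by Klf15. The part of liver RNA in the Klf15 level of K15SKO 2 was not tested, and no cause is read from these 3 libraries.

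Set against the summed level of the 12 skeletal muscle markers, Mettl21c was closer between the K15SKO libraries. It came to 0.538, 0.543 and 0.576 FPKM per 1000 FPKM of muscle markers in K15SKO 1, 2 and 3, against 1.47, 1.82 and 1.32 in MyoCre 1, 2 and 3. On this scale too the groups did not overlap, and K15SKO 3 stood level with K15SKO 1 and 2. The log2 difference of Mettl21c with the libraries rescaled to these markers was −1.44. The slow fibre marker sums given above also differed between the libraries, and the part of fibre type in this scale was not tested. The adipocyte marker sums given above were lower in all 3 K15SKO libraries, as Mettl21c was, and their part in its values was not tested.

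A processed pseudogene, Gm15838, lies inside Mettl21c on the same strand. It was listed at 0 in K15SKO 1, 2 and 3, against 1.17, 9.17 and 3.65 FPKM in MyoCre 1, 2 and 3. Reads in that stretch may have been split between the genes by the authors' counting, so the value of either is uncertain by that share. The nearest protein-coding neighbour, Tpp2, which encodes a peptidase, was at 12.6, 14.0 and 16.9 FPKM in K15SKO, against 15.2, 17.3 and 18.1 FPKM in MyoCre, with a log2 difference of −0.21 (SE 0.14, limma adjusted p = 0.418).

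Mettl21a, the closest relative of Mettl21c in the set, methylates chaperones of the Hsp70 class in human cells. It lies on the same chromosome, from 64606473 to 64617242 on the minus strand. Its level was 10.5, 10.1 and 5.52 FPKM in K15SKO 1, 2 and 3, against 4.76, 5.68 and 5.26 FPKM in MyoCre 1, 2 and 3. K15SKO 1 and 2 were above every MyoCre library, at 201% and 194% of the MyoCre mean, and K15SKO 3 lay within the MyoCre range. This arrangement was found in 8.34% of all genes tested. The group means were 8.72 ± 2.78 FPKM in K15SKO and 5.23 ± 0.459 FPKM in MyoCre (SD, n = 3 each), a log2 difference of 0.60 (SE 0.23). It was 0.86 without K15SKO 3 and 0.46 without K15SKO 1.

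In K15SKO 1 and 2, Mettl21a thus stood above and Mettl21c below every MyoCre library. Within a library, where a common scaling factor cancels, Mettl21c stood at 2.16, 2.30 and 7.27 times the level of Mettl21a in K15SKO 1, 2 and 3, against 18.5, 19.4 and 17.7 times in MyoCre 1, 2 and 3. The ratio was even across MyoCre, and every K15SKO library was below it. K15SKO 1 and 2 are also the libraries with the high macrophage and regeneration marker sums and the low muscle marker sums given above. The part of those cells in the Mettl21a values was not tested.

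Smyd1 encodes the muscle SMYD enzyme that takes part in sarcomere assembly and binds the muscle form of Naca. It lies on chromosome 6 from 71213940 to 71322233 on the minus strand. It was the most abundant of the 7 genes in both genotypes, at 228, 215 and 225 FPKM in K15SKO 1, 2 and 3, against 210.5, 219 and 228 FPKM in MyoCre 1, 2 and 3. The libraries of both groups were interleaved. The means were 223 ± 7.04 FPKM in K15SKO and 219 ± 8.88 FPKM in MyoCre (SD, n = 3 each), a coefficient of variation of 3.16% and 4.05%. The log2 difference was 0.02 (SE 0.11), and 5.67% of all genes tested lay as near to 0 or nearer.

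The level of Smyd1 depended on the scale. Per 1000 FPKM of muscle markers it was 5.42, 5.004 and 3.23 FPKM in K15SKO 1, 2 and 3, against 3.50, 3.61 and 3.26 FPKM in MyoCre 1, 2 and 3. On that scale K15SKO 1 and 2 stood above every MyoCre library and K15SKO 3 just below them, with a log2 difference of 0.36, whereas quantile normalization gave −0.086. Krcc1, which overlaps Smyd1 on the opposite strand, was at 21.2, 21.3 and 16.6 FPKM in K15SKO, against 16.0, 17.3 and 16.7 FPKM in MyoCre. Whether counting used strand is not stated in the labels or the matrix, so reads of the shared stretch cannot be told apart.

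Smyd2 lies on chromosome 1 from 189880492 to 189922363 on the minus strand and came next to Smyd1 in level. Its level was 60.8, 62.1 and 139.5 FPKM in K15SKO 1, 2 and 3, against 139.9, 109.6 and 126.5 FPKM in MyoCre 1, 2 and 3. K15SKO 1 and 2 were at 48.5% and 49.6% of the MyoCre mean, and K15SKO 3 lay inside the MyoCre range at 111%. Of all genes tested 13.6% had both K15SKO 1 and 2 below every MyoCre library and K15SKO 3 within their range. The means were 87.5 ± 45.1 FPKM in K15SKO and 125 ± 15.2 FPKM in MyoCre (SD, n = 3 each), a log2 difference of −0.62 (SE 0.33).

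The size of the Smyd2 difference turned on K15SKO 3. It was −1.01 without that library, and −0.42 and −0.43 without K15SKO 1 and 2. Within a library, Smyd2 stood at 0.266, 0.289 and 0.620 times the level of Smyd1 in K15SKO 1, 2 and 3, against 0.665, 0.501 and 0.554 times in MyoCre 1, 2 and 3. Per 1000 FPKM of muscle markers it was 1.44, 1.45 and 2.00 FPKM in K15SKO, against 2.33, 1.81 and 1.80 FPKM in MyoCre, so K15SKO 1 and 2 stayed below the MyoCre libraries on that scale, and the log2 difference was −0.28. Gm38245, an unclassified transcript that overlaps Smyd2 on the same strand, was at 0.281 FPKM or less in every library.

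**Figure D2:**
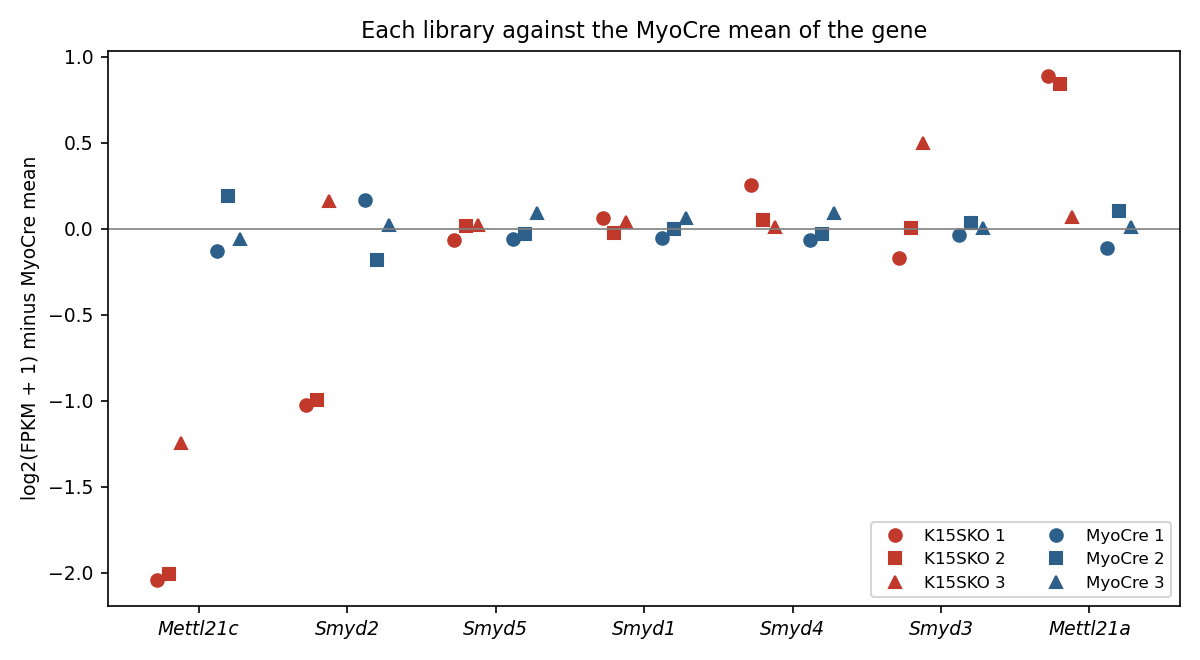
Each library's log2(FPKM + 1) minus the MyoCre mean of the gene (y axis) for the 7 genes, K15SKO in red left of MyoCre in blue, with a marker shape per replicate number. Mettl21c lies at −2.04, −2.01 and −1.25 in K15SKO 1, 2 and 3, Mettl21a at 0.89 and 0.84 in K15SKO 1 and 2, Smyd2 near −1 in the same 2 libraries, and Smyd1 and Smyd5 stay within 0.1 of 0 in every library.

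The other 3 SMYD genes were low. Smyd5, whose product methylates histone and ribosomal proteins in mammalian cells, was at 4.44, 4.74 and 4.77 FPKM in K15SKO 1, 2 and 3, against 4.47, 4.57 and 5.06 FPKM in MyoCre 1, 2 and 3. The groups overlapped and the log2 difference was −0.01 (SE 0.09). Smyd4, which in zebrafish has a part in heart development, was at 2.997, 2.47 and 2.38 FPKM in K15SKO, against 2.21, 2.29 and 2.58 FPKM in MyoCre. K15SKO 1 alone was above the MyoCre libraries, and the log2 difference was 0.10 (SE 0.12).

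Smyd3, whose product methylates the kinase Map3k2 and histones in mammalian cells, was at 1.30, 1.59 and 2.65 FPKM in K15SKO 1, 2 and 3, against 1.52, 1.65 and 1.60 FPKM in MyoCre 1, 2 and 3. K15SKO 3 was above and K15SKO 1 below every MyoCre library, so the K15SKO libraries lay on both sides of the controls. The log2 difference was 0.11 (SE 0.20), and it was −0.084 without K15SKO 3. Smyd5 lies on chromosome 6 from 85431989 to 85446435 and Smyd4 on chromosome 11 from 75348433 to 75405705, both on the plus strand. Smyd3 is the longest of the genes, on chromosome 1 from 178951960 to 179518041 on the minus strand. Of the 7 genes, 4 share chromosome 1, the METTL21 genes with Smyd2 and Smyd3.

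By mean level the order in K15SKO was Smyd1, Smyd2, Mettl21c, Mettl21a, Smyd5, Smyd4 and Smyd3, and it was the same in MyoCre. In K15SKO all neighbours in this order were apart in their ranges except Smyd4 and Smyd3. In MyoCre the ranges of Smyd2 and Mettl21c overlapped, as did those of Mettl21a and Smyd5. Smyd1, Smyd2 and Mettl21c ranked at places 260, 514 and 676 of 23282 gene symbols by MyoCre mean, and the others between 6795 and 10098. By level, 3 of the genes thus stood high in this muscle, while the other 4 were at 1.59 to 5.23 FPKM in MyoCre. Only quadriceps was sequenced, so these levels do not show how far a gene is restricted to muscle. Of the summed level of the 7 genes, Mettl21c made up 6.85%, 7.30% and 9.56% in K15SKO 1, 2 and 3, against 19.5%, 24.3% and 20.1% in MyoCre 1, 2 and 3.

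Promoter sequences from RefSeq (GRCm38.p6), 250 bases before to 50 after the annotated start, were matched by symbol for 5 of the 7 genes, without Mettl21c and Smyd3. The windows of Smyd2, Mettl21a and Smyd1 are shown, as the genes that stood lower, higher and level in K15SKO 1 and 2. Capitals mark matches on either strand to CACCC or CCNCNCCC, both of the type bound by Krüppel-like factors such as Klf15. The Smyd2 window is chr1:189922242-189922541 (minus strand), the Mettl21a window chr1:64617715-64618014 (minus strand) and the Smyd1 window chr6:71262232-71262531 (minus strand).
Smyd2: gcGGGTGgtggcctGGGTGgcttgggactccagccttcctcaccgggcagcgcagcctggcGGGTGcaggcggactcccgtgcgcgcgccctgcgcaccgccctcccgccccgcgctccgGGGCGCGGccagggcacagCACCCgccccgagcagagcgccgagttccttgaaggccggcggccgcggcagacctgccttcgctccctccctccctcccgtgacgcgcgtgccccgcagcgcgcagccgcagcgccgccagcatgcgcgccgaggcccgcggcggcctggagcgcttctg
Mettl21a: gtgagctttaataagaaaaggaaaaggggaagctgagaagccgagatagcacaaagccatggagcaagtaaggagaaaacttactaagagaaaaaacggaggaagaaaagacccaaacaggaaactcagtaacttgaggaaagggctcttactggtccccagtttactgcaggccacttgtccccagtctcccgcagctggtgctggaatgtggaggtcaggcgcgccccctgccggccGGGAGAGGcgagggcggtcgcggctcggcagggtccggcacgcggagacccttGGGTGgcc
Smyd1: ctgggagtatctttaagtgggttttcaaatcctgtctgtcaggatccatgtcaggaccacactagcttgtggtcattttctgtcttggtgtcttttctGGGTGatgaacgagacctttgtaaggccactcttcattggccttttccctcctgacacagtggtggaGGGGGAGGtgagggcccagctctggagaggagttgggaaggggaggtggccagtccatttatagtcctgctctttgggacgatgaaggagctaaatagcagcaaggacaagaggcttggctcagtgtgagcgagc

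CACCC was in 56.7% and CCNCNCCC in 49.1% of the 27025 promoters of that table, and the motifs can overlap. Among the 8260 promoters of genes tested here, the shares were 62.6% and 69.0%. Smyd2 held 4 matches to CACCC in a window of 79.0% G and C, and 3.03% of promoters held at least as many. Smyd1 and Mettl21a held 1 match each, in windows of 52.0% and 57.0% G and C, and Smyd5 and Smyd4 held 2 and 0. To CCNCNCCC there were 4 matches in Smyd5 and 1 in each of the others. The E-box motif CANNTG was in 72.1% of promoters and in 62.6% of those of tested genes. It had 2 matches in Mettl21a, 3 in Smyd4, 1 in Smyd5 and 0 in Smyd1 and Smyd2. The MEF2-type motif, in 3.70% of promoters and 3.04% of those of tested genes, had 0 matches in all 5. Matches are of letters only and say nothing of binding. The Smyd1 window lies inside the gene's GENCODE span, and the Mettl21a window lies upstream of the GENCODE start of Mettl21a. The annotated starts thus differ between the sources.

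The profile of Mettl21c over the 6 libraries was compared with those of 11332 tested genes above 0 in every library. Likeness was the root-mean-square distance between log2 values, each taken relative to the gene's MyoCre mean. The 10 nearest genes lay at distances of 0.273 to 0.336 log2 units, 1 gene without a proper name being passed over. They were chosen for this likeness, so their differences of −1.81 to −1.37 are a description, and K15SKO 3 was the highest of the 3 K15SKO libraries in 10 of 10.

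The nearest was Chac1, which encodes a glutathione-degrading enzyme, at 31.9, 31.9 and 74.4 FPKM in K15SKO 1, 2 and 3, against 142, 129 and 190 FPKM in MyoCre 1, 2 and 3. Next came Casr, the calcium-sensing receptor, at 1.26, 1.38 and 2.93 FPKM in K15SKO, against 5.23, 6.52 and 8.84 FPKM in MyoCre. Fbp2, the muscle fructose bisphosphatase, was at 8.35, 13.5 and 21.6 FPKM in K15SKO, against 40.4, 38.8 and 40.1 FPKM in MyoCre. In all of these the K15SKO libraries stood below every MyoCre library, as for Mettl21c. The others were Tmem100, Pdp2 (a pyruvate dehydrogenase phosphatase), Lipe (hormone-sensitive lipase), Amd2, Nmrk2 (a nicotinamide riboside kinase of muscle), Neto2 and Amd1. Amd1 encodes the decarboxylase that draws S-adenosylmethionine, the methyl donor, into polyamine synthesis, and stood at 99.5 ± 55.2 FPKM in K15SKO and 269 ± 66.5 FPKM in MyoCre (SD, n = 3 each). Amd2 is a near-identical copy of Amd1 whose reads may be shared, so its place in the list is uncertain. Lipe is also a fat cell gene, and the adipocyte marker sums were lower in every K15SKO library than in any MyoCre library. The part of fat tissue in that likeness was not tested.

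**Figure D3:**
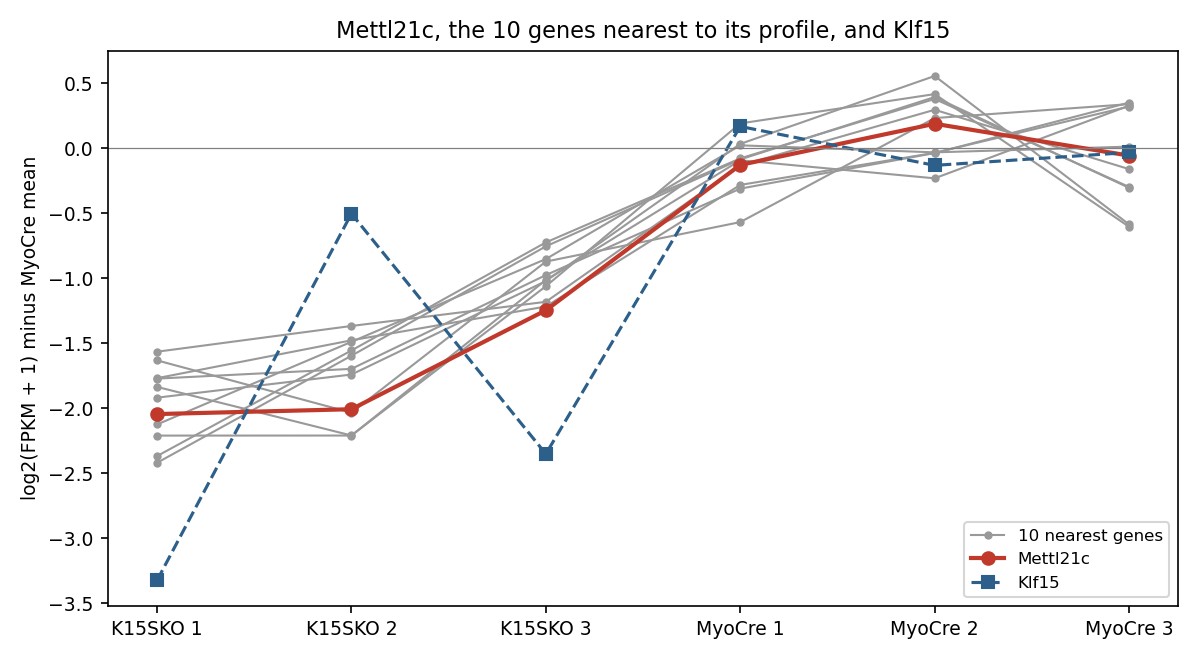
Log2(FPKM + 1) minus the MyoCre mean (y axis) by library for Mettl21c (red), the 10 genes nearest to its profile (grey) and Klf15 (blue, dashed). Lines join the libraries of a gene and mark no order. Klf15 is highest among the K15SKO libraries in K15SKO 2, at −0.50, where Mettl21c is at −2.01.

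For Smyd1 the 5 nearest genes were Ints9, Fam120c, Nup88, Cdc26 and Ano10, at distances of 0.025 to 0.030 log2 units. Like Smyd1 they were nearly level in all libraries, with log2 differences of −0.011 to 0.049.

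The 6 lists of related genes were compared in the same limma fit, with 106 of 115 listed genes tested. None of the 106 passed an adjusted p of 0.05 over all genes tested, and the median log2 difference of all genes tested was −0.015. Over all genes tested 16.6% had an unadjusted p under 0.05 in either direction. The counts at that threshold in the lists are to be read against this share, and those of 3 in 20 or 2 in 11 lie near it. Rescaling to the muscle markers put the median of all genes at 0.27 and moved the differences of the named list genes, except Cryab, by more than 1.5 times. Under it Mettl20, Carm1, Prmt5 and Ahcyl1, all below 0 as deposited, came out above 0. Without K15SKO 3, which no label gives reason to leave out, limma called 2817 genes, and 0, 7, 8, 1, 5 and 3 list genes in the order of the lists that follow.

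Among the METTL21-type and related seven-beta-strand enzymes, 0 of 11 tested genes passed with limma, 2 were higher and 0 lower at an unadjusted p under 0.05, and the median was 0.07. The 2 were Dot1l, the histone methyltransferase of this fold, at 9.90 ± 1.34 FPKM in K15SKO and 7.15 ± 0.532 FPKM in MyoCre (SD, n = 3 each, limma adjusted p = 0.272), and Eef2kmt, which methylates the elongation factor Eef2, at 5.52 ± 0.845 FPKM in K15SKO and 4.17 ± 0.272 FPKM in MyoCre (limma adjusted p = 0.286). Mettl20, whose product methylates an electron transfer flavoprotein, had a log2 difference of −0.29 (SE 0.13), and Mettl13, an elongation factor methyltransferase, one of −0.28 (SE 0.14). Mettl21e, the nearest muscle relative of Mettl21c, was chosen after its values were seen. It stood at 1.48, 1.64 and 1.93 FPKM in K15SKO 1, 2 and 3, against 1.20, 1.61 and 1.00 FPKM in MyoCre 1, 2 and 3, with overlapping groups.

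Among other SET-domain methyltransferases, 0 of 28 passed with limma, 0 were higher and 3 lower at an unadjusted p under 0.05, and the median was −0.089. Setd7, a lysine methyltransferase of histones and of other proteins, was at 47.6, 62.6 and 88.5 FPKM in K15SKO 1, 2 and 3, against 98.3, 105 and 131 FPKM in MyoCre 1, 2 and 3. The groups did not overlap, and the log2 difference was −0.78 (SE 0.24, limma adjusted p = 0.272). Prdm2 and Kmt2c, both histone methyltransferases, had differences of −0.40 (SE 0.13 and 0.15), and Suv420h2, which methylates histone H4, had one of 0.45 (SE 0.22), which was 0.27 without K15SKO 1 and 0.68 without K15SKO 3.

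Of the lysine demethylases, 0 of 20 passed with limma, 0 were higher and 3 lower at an unadjusted p under 0.05, and the median was −0.20. By library the list's median was −0.28, −0.35 and 0.02 in K15SKO 1, 2 and 3, against −0.038 to 0.075 in MyoCre, so K15SKO 3 again lay with the controls. Kdm8 stood at 4.27 ± 0.823 FPKM in K15SKO and 6.05 ± 0.274 FPKM in MyoCre, and Kdm1b at 3.12 ± 0.369 FPKM in K15SKO and 3.99 ± 0.110 FPKM in MyoCre (SD, n = 3 each). Kdm7a and Kdm2a had log2 differences of −0.47 (SE 0.19) and −0.37 (SE 0.17).

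Of the protein arginine methyltransferases, listed together with the Prmt5 partner Wdr77, 0 of 10 passed with limma. At an unadjusted p under 0.05, 1 was higher and 0 lower, and the median was 0.07. The 1 was Prmt1, the main enzyme of this class, at 90.6, 84.4 and 67.2 FPKM in K15SKO 1, 2 and 3, against 49.6, 55.6 and 64.7 FPKM in MyoCre 1, 2 and 3 (limma adjusted p = 0.273). Carm1, Prmt3 and Prmt5 had log2 differences of −0.19, 0.17 and −0.15, and that of Prmt3 was 0.10 without K15SKO 2.

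Among 21 reported substrates and binding partners, 0 passed with limma, 2 were higher and 0 lower at an unadjusted p under 0.05, and the median was 0.12. Cryab, a small heat shock protein of muscle, was at 5368, 4517 and 942 FPKM in K15SKO 1, 2 and 3, against 630, 467 and 582 FPKM in MyoCre 1, 2 and 3. All 3 K15SKO libraries were higher, K15SKO 3 the least, with a log2 difference of 2.35 (SE 0.65, limma adjusted p = 0.272) that without K15SKO 3 was 3.15 (limma adjusted p = 0.00113, the lowest over the 15 alternatives, which reached 0.585). Hsp90ab1, a substrate of Smyd2, was at 624 ± 69.3 FPKM in K15SKO and 466 ± 82.0 FPKM in MyoCre (limma adjusted p = 0.294), Hspa9 at 208 ± 12.8 FPKM in K15SKO and 174 ± 9.35 FPKM in MyoCre, and Rb1 at 6.49 ± 1.25 FPKM in K15SKO and 5.05 ± 0.361 FPKM in MyoCre (SD, n = 3 each). The log2 difference of Rb1 was 0.30, and 0.17 without K15SKO 2, and that of Hsp90ab1 was 0.43, and 0.26 with quantile normalization. Hspa8, reported as a substrate of both METTL21 enzymes, was at 263, 274 and 350 FPKM in K15SKO, against 338, 254 and 355 FPKM in MyoCre, with overlapping groups. Aars, which encodes alanyl-tRNA synthetase, was at 22.4, 22.1 and 32.3 FPKM in K15SKO, against 27.6, 26.8 and 34.0 FPKM in MyoCre, with overlapping groups. Unc45b, the myosin chaperone, had a log2 difference of −0.18 (SE 0.19) and Naca one of −0.22 (SE 0.13). Hspa8, Aars, Unc45b and Naca were chosen after their values were seen.

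For the supply and removal of S-adenosylmethionine, 0 of 16 genes passed with limma, 0 were higher and 3 lower at an unadjusted p under 0.05, and the median was 0.0089. Mtrr, the reductase that keeps methionine synthase active, stood at 5.78 ± 0.810 FPKM in K15SKO and 7.68 ± 0.297 FPKM in MyoCre (SD, n = 3 each), and Mtr, the synthase itself, at 3.21 ± 0.849 FPKM in K15SKO and 4.49 ± 0.480 FPKM in MyoCre. Mtap and Ahcyl1 had log2 differences of −0.37 (SE 0.14) and −0.25 (SE 0.11), and that of Mtap was −0.24 without K15SKO 1. Mat2a, the synthetase of S-adenosylmethionine in muscle, was at 84.0, 92.0 and 104 FPKM in K15SKO, against 97.0, 112 and 75.7 FPKM in MyoCre. The liver genes of this list stood high in the library with the highest liver marker sum: Gnmt was at 1.36, 98.1 and 0.364 FPKM in K15SKO 1, 2 and 3, against 0.576 to 0.963 FPKM in MyoCre. Mat2a and Gnmt were chosen after their values were seen.

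**Figure D4:**
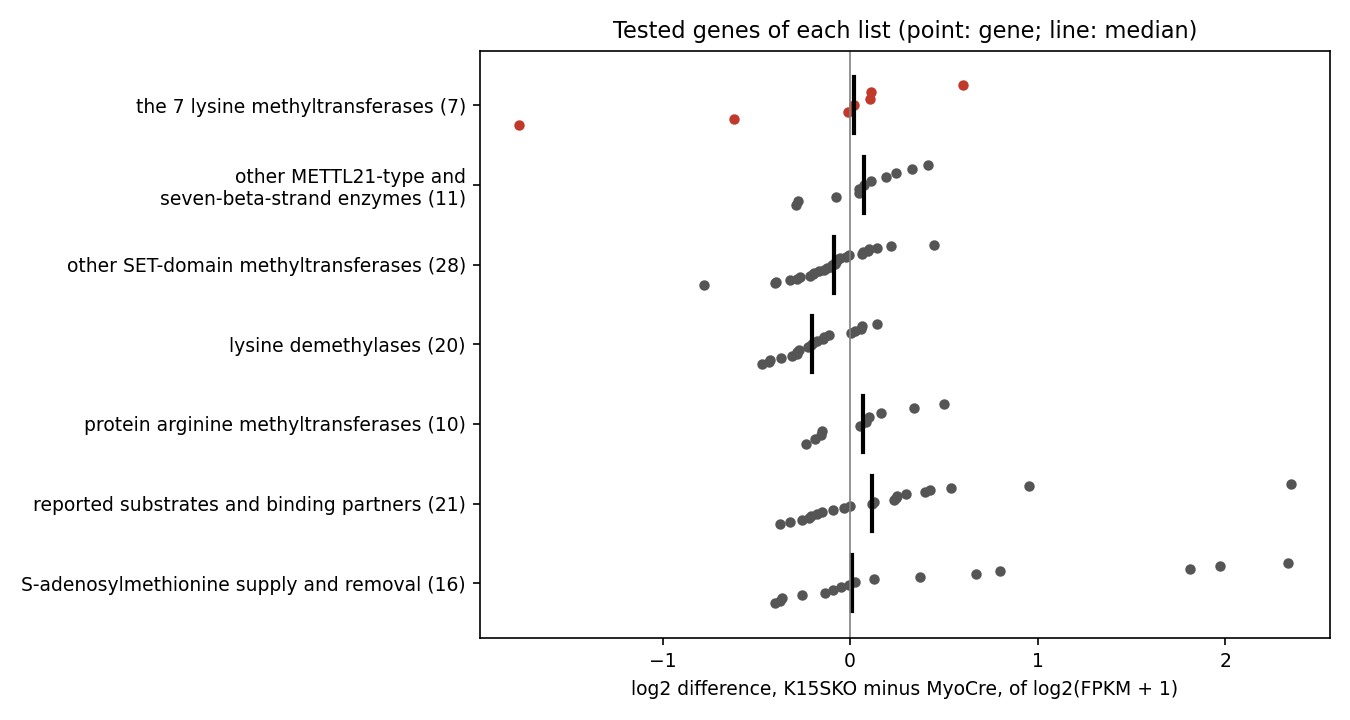
Log2 difference, K15SKO minus MyoCre, on the log2(FPKM + 1) scale (x axis) for each tested gene (points) of the 7 lysine methyltransferases (red) and 6 related lists (grey), with list medians as black lines. Mettl21c at −1.77 lies below every gene of the related lists, of which Setd7 at −0.78 comes nearest. The set was chosen around this difference of Mettl21c, so its place is a description only.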

How the data were processed

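The authors deposited 1 matrix of 23314 rows and 6 libraries, taken here as FPKM, since it does not name its unit; STAR, Cufflinks, Cuffdiff and the mm10 build are named, without versions or roles, per the submitters' processing notes. Total RNA had been purified with a kit, per the labels' protocols. Columns were matched to libraries by their descriptions, and 0 columns belonged to no sample. Of repeated symbols, 32 rows of lower mean were dropped. The test was limma 3.58.1 (R 4.3.3) on log2(FPKM + 1) for 11603 genes averaging 1 FPKM or more (intensity trend, two-sided, Benjamini-Hochberg over all genes tested, threshold 0.05), and the code was tested on simulated data. Gene positions came from GENCODE M21 (GRCm38, the mm10 assembly), in which 7 of 7 IDs matched with their version. Tables and plots were made with Python 3.11.15, pandas 2.3.3 and matplotlib 3.10.9.

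The genes and lists were chosen with earlier results of these data known. Named genes are the 7 and Klf15, up to 4 genes per related list by smallest unadjusted p, and the 10 and 5 genes nearest in profile to Mettl21c and Smyd1 (leaving out systematic names such as Gm or Rik, pseudogenes and small RNAs). Results were also computed with a pseudocount of 0.1 or 0.5, without the filter, with one of 5 FPKM, with scaling by median of ratios, with quantile normalization, without the trend, with the replicate number as a block, each library left out, and, chosen after seeing the data, rescaling to 12 skeletal muscle markers.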

Additional observations from a re-analysis of the deposited data

How the results depend on the processing

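The log2 differences of Mettl21c, Mettl21a and Smyd2 kept their sign in all 15 alternatives, at −2.03 to −1.44, 0.46 to 0.91 and −1.01 to −0.28. That of Smyd1 was −0.086 with quantile normalization and 0.36 with rescaling to muscle markers, which gave 0.36 for Smyd4 and 0.27 for Smyd5 and raised the median of all genes to 0.27; under it Mettl20, Carm1, Prmt5 and Ahcyl1 came to 0.021, 0.14, 0.17 and 0.059, against −0.29, −0.19, −0.15 and −0.25 as deposited, and Mettl13, Kdm1b, Kdm2a, Mtrr and Mtap to −0.024, −0.017, −0.065, −0.068 and −0.071, against −0.28, −0.28, −0.37, −0.36 and −0.37. The other named genes below 0, Setd7, Prdm2, Kmt2c, Kdm8, Kdm7a and Mtr, came to −0.44, −0.10, −0.15, −0.15, −0.18 and −0.14, and those above 0 to 0.48 to 0.84, with Cryab at 2.69. The other alternatives moved Smyd1, Smyd4 and Smyd5 by less than 1 SD between libraries. Smyd3, Smyd4 and Smyd5 have no value under a filter of 5 FPKM.

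The count of genes called by limma was 6, with 2 higher and 4 lower. It was 3 (1 higher, 2 lower) with no filter and 3 (1 higher, 2 lower) with the replicate block, and 2 were lower with rescaling to muscle markers. Leaving out 1 library gave 3 to 2817 calls, 1 to 1282 higher and 2 to 1535 lower. The count was 2817 without K15SKO 3 and 3 without MyoCre 1 or MyoCre 2; 2 were lower without K15SKO 1 and 1 was higher without MyoCre 3. Leaving out 1 library gave 0 to 7 called SET-domain genes, 0 to 8 demethylases, 0 to 1 arginine methyltransferases, 0 to 5 substrates and partners and 0 to 3 S-adenosylmethionine genes, against 0 in each list with all libraries; the causes were not tested. For libraries with the same number, the deviations from the group means correlated at 0.0028, 0.0855 and 0.0943 across genes. Pairs with different numbers lay between −0.0949 and 0.0065. With 3 libraries per group, such values cannot show whether libraries of the same number share more than the number.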

Other observations

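Genes beside the methyltransferase genes were described from their own values. Within 20 kb of Smyd5, the chaperonin subunit gene Cct7 stood at 79.2, 84.0 and 79.7 FPKM in K15SKO 1, 2 and 3, against 63.6, 60.4 and 72.5 FPKM in MyoCre 1, 2 and 3, so the groups did not overlap (log2 difference 0.30, SE 0.11, limma adjusted p = 0.287), while Smyd5 itself was level. Pradc1, on the opposite strand, stood at 8.86, 9.89 and 9.73 FPKM in K15SKO, against 11.2, 10.7 and 10.9 FPKM in MyoCre, again without overlap (limma adjusted p = 0.324). Beside Smyd4, Serpinf1, which encodes a secreted serpin, was at 28.6, 44.4 and 13.5 FPKM in K15SKO, against 15.6, 13.2 and 12.1 FPKM in MyoCre (limma adjusted p = 0.312). Creb1, the transcription factor gene beside Mettl21a, stood at 2.29, 2.15 and 2.86 FPKM in K15SKO, against 2.86, 3.80 and 3.54 FPKM in MyoCre, where Mettl21a was higher in K15SKO 1 and 2. Fabp1, a liver gene beside Smyd1, was at 3.29, 286 and 0.542 FPKM in K15SKO, against 0.135, 0.186 and 0 FPKM in MyoCre, the highest value falling in the library with the highest liver marker sum. These genes were chosen by position after the data were seen.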
